A study of Mus musculus with 30 samples.

Results

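Genes linked to interferon in the metabolism of tryptophan and arginine and in immune metabolism, 10 in all, were followed across 24 bulk RNA sequencing libraries of mouse tumor cells. The 10 genes, taken by symbol from a list, were Ido1, Kynu, Wars (also called Wars1), Nos2, Gch1, Ass1, Acod1, Arg2, Slc7a2 and Ch25h, out of 49315 genes counted. PDAC cells are the 6694c2 line, derived from female mice whose alleles included p53+/floxed, Pdx-cre and YFP-floxed, the Cre being driven by the pancreatic Pdx promoter. B16F10 is a mouse melanoma line. The labels give a C57BL/6 background for both. Each line was cultured for 24 h with vehicle, with IFNγ at 100 ng/mL, with IFNβ at 1000 U/mL or with STING agonist at 225 μg/mL. Each of the 8 groups held 3 libraries. Nothing in the sources used here says that the 3 came from separate cultures, so p-values measure the spread between these libraries, which may be technical.

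Interferons switch on not only antiviral proteins but also enzymes that deplete or convert amino acids and other small metabolites. IDO1 opens the kynurenine pathway of tryptophan breakdown, NOS2 makes nitric oxide from arginine with tetrahydrobiopterin as cofactor, and ACOD1 makes itaconate from the citrate cycle intermediate aconitate. These enzymes are best known from macrophages and dendritic cells, and IDO1 also from tumor cells, where tryptophan loss restrains T cells.

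The libraries held 15543131 to 32266795 reads on genes. All 10 genes had at least 10 reads over the 24 libraries, the minimum used, and were among the 21138 genes tested. A gene was called where the adjusted p-value of edgeR's quasi-likelihood test, corrected over all genes tested, was under 0.05. Expression is given as CPM, reads on a gene relative to the TMM-scaled library total, and log2 fold changes are from the fit. Irf1, a transcription factor induced by IFNγ, averaged 12.3 CPM with vehicle and 637 CPM with IFNγ in B16F10 cells, and 22.2 and 573 CPM in PDAC cells. Melanocyte genes marked the B16F10 libraries and ductal epithelial genes the PDAC libraries, and each line also held low levels of the other line's genes, which are given beside the results they move with. Of the remaining marker lists, T and B cell genes summed to between 3.44 and 17.4 CPM and fibroblast genes to between 0.332 and 15.9 CPM in every library. Within a line, all treatments were compared with the same vehicle libraries, so these comparisons are not independent of each other.

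In PDAC cells, IFNγ raised 4 of the 10 genes, Wars, Ido1, Acod1 and Nos2, and lowered 0, where 13.5% of all genes tested were called. In B16F10 cells it raised Wars and lowered Ass1, 2 of the 10, where 22.8% of all genes were called. IFNβ raised Gch1 in both lines. In PDAC cells it raised Gch1, Wars and Ido1, 3 of the 10 with 18.2% of all genes called, and in B16F10 cells it raised Gch1 and lowered Ass1, 2 of the 10 with 24.0% of all genes called. STING agonist changed 0 of the 10 in B16F10 cells (3.46% of all genes called) and 0 in PDAC cells (0.360% of all genes called). At an unadjusted p under 0.05 the STING agonist counts were 0 in B16F10 and 3 in PDAC cells (Ido1, Gch1 and Ass1), and DESeq2 called 0 in each. DESeq2 gave no adjusted p for 5 of the 10 in B16F10 and 3 of the 10 in PDAC cells, so these could not be called. With a cytokine, the share of the 10 genes called lay above the share of all genes called in PDAC cells. In B16F10 cells it was 20% with either cytokine, near the share of all genes called.

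**Figure D1:**
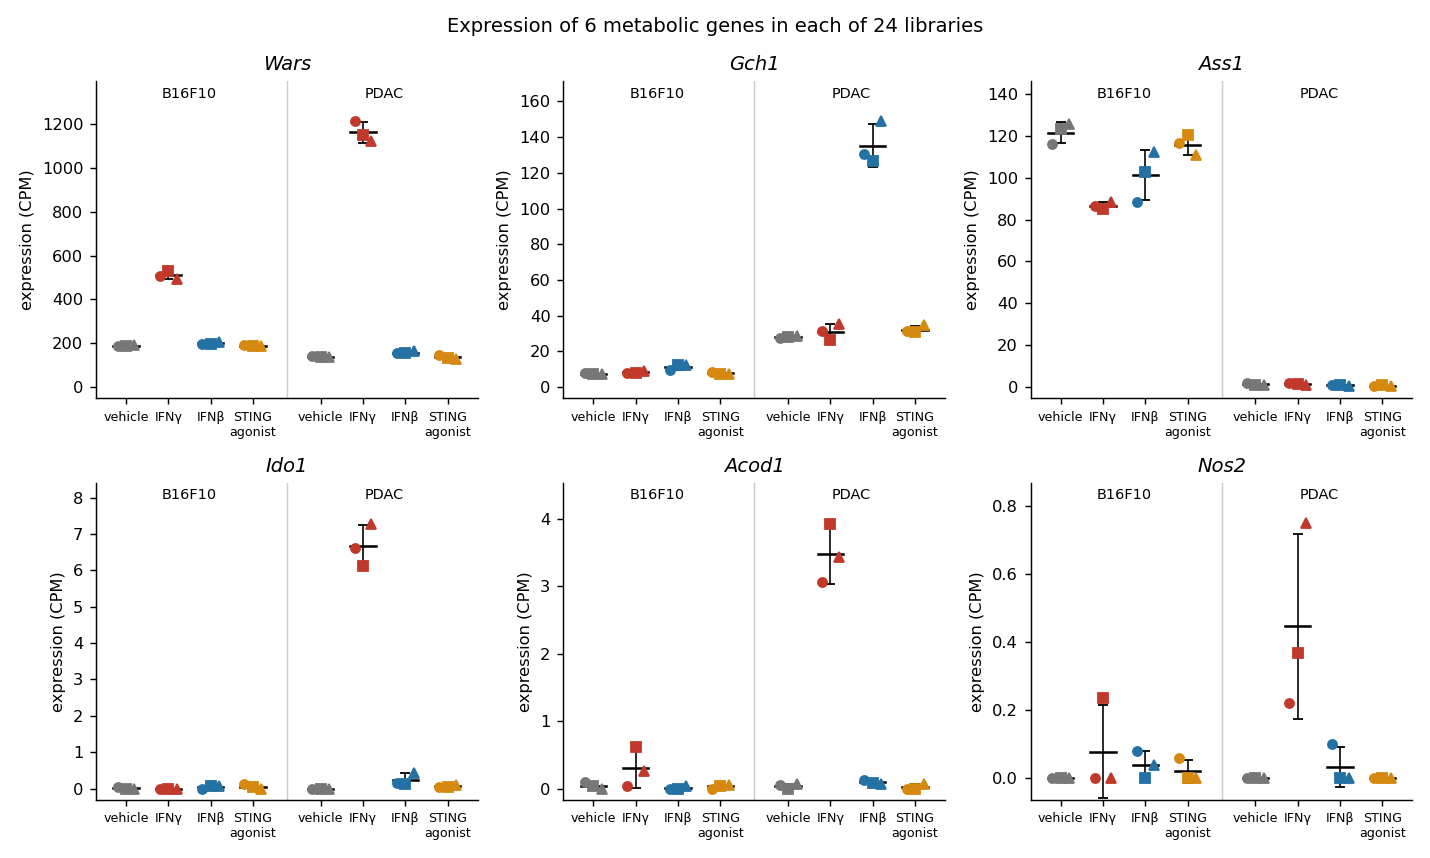
Expression in CPM (y axis, linear) of 6 genes by line and treatment; each point is 1 library (circle, square and triangle for replicates 1, 2 and 3), the horizontal line the mean and the bar the SD of 3 libraries. Wars stood apart with IFNγ in both lines and Gch1 with IFNβ in PDAC cells, Ass1 was near 0 in PDAC cells, and Ido1, Acod1 and Nos2 rose from near 0 with IFNγ in PDAC cells.

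Wars encodes the cytosolic tryptophanyl-tRNA synthetase, which loads tryptophan onto its tRNA, and had the highest level per kilobase of the 10 genes in 7 of the 8 groups. It lies on the minus strand of chromosome 12 (ENSMUSG00000021266, 108860030 to 108894174 of GRCm38) and overlaps Gm22079 on the same strand, so reads of the pair may not be separable. In PDAC cells, Wars stood at 139, 137 and 137 CPM in the 3 vehicle libraries and at 1217, 1153 and 1123 CPM with IFNγ. The groups lay far apart, and the fold change was 8.53 (log2 3.09, its standard error (SE) 0.069, edgeR adjusted p = 2.18e-33). In B16F10 cells, Wars was at 187, 186 and 191 CPM with vehicle and at 508, 529 and 492 CPM with IFNγ, a fold change of 2.70 (log2 1.43, SE 0.054, edgeR adjusted p = 5.07e-89). Every IFNγ library of either line was therefore above every vehicle library of both. The IFNγ effect on Wars was larger in PDAC than in B16F10 cells by 1.64 on the log2 scale (SE 0.078, edgeR interaction over the 24 libraries adjusted p = 2.44e-19). Of the 10 genes, 2 were called in this interaction, where 9.47% of all genes were called.

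IFNβ moved Wars far less. In PDAC cells the IFNβ libraries held 154, 154 and 164 CPM, above all 3 vehicle libraries, and the log2 fold change was 0.22 (SE 0.065, edgeR adjusted p = 0.0106). This call was lost when counts were scaled to total reads (edgeR adjusted p = 0.0732) and without IFNβ replicate 3 (edgeR adjusted p = 0.0595). In B16F10 cells the IFNβ libraries were at 195, 198 and 204 CPM and Wars was not called (log2 fold change 0.09, 95% interval -0.02 to 0.19). Directly against IFNβ, IFNγ gave higher Wars by 2.87 on the log2 scale in PDAC cells (edgeR adjusted p = 5.87e-32) and by 1.35 in B16F10 cells (edgeR adjusted p = 4.59e-82). With STING agonist the log2 difference from vehicle was -0.02 in PDAC cells (95% interval -0.15 to 0.11) and -0.01 in B16F10 cells (95% interval -0.12 to 0.09), so a change of Wars larger than these bounds was not seen in either line.

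The rest of the enzyme class changed less than Wars with IFNγ. The other 19 cytosolic aminoacyl-tRNA synthetase genes, each serving other amino acids, were all tested. With IFNγ, 9 rose and 1 fell in B16F10 cells, with a median of 0.14 on the log2 scale against 0 over all genes tested, and 6 rose and 0 fell in PDAC cells, again with a median of 0.14 against 0. All genes were called at 22.8% and 13.5% in these comparisons. None of the 19 passed 2-fold in either cytokine comparison. Kars, the lysyl-tRNA synthetase gene, had the next largest IFNγ effect after Wars in both lines and is named here after its values were seen. It rose from 228 ± 2.36 to 397 ± 9.71 CPM in B16F10 cells (SD, n = 3 each; log2 fold change 0.80, edgeR adjusted p = 8.02e-39) and from 283 ± 4.35 to 426 ± 10.8 CPM in PDAC cells (log2 fold change 0.61, edgeR adjusted p = 7.79e-10). A difference between the lines was not called for Kars (log2 -0.21, edgeR interaction adjusted p = 0.110). With IFNβ, 12 of the 19 rose and 0 fell in PDAC cells, where 18.2% of all genes were called, and the median was 0.26 on that scale. In B16F10 cells IFNβ raised 8 and lowered 1 (24.0% of all genes called), with a median of 0.13 against 0.02 over all genes. The IFNβ effect differed between the lines for 4 of the 19, each higher in PDAC cells (12.1% of all genes called). Directly against IFNβ in PDAC cells, IFNγ was higher for 1 and lower for 4 of the 19 (13.9% of all genes called).

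**Figure D2:**
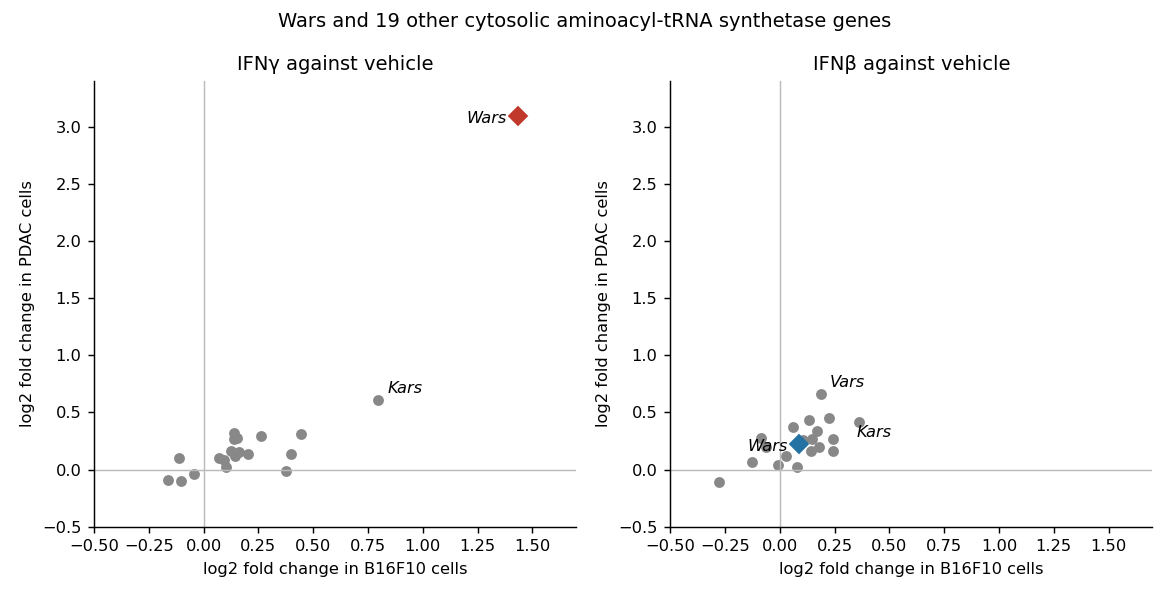
Log2 fold changes against vehicle in B16F10 cells (x axis) and PDAC cells (y axis) for IFNγ (left) and IFNβ (right); grey points are the 19 other cytosolic aminoacyl-tRNA synthetase genes and the diamond is Wars. With IFNγ Wars lay at 1.43 and 3.09 and Kars at 0.80 and 0.61, while with IFNβ Wars lay inside the cloud of the other genes.

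Ido1 encodes indoleamine 2,3-dioxygenase, which opens the tryptophan ring. The gene (ENSMUSG00000031551) lies on the minus strand of chromosome 8 from 24584136 to 24597009 of GRCm38. In PDAC cells, 0 reads were counted in the 3 vehicle libraries, and 119, 100 and 214 reads with IFNγ, or 6.61, 6.13 and 7.28 CPM. The summed reads put IFNγ at least 117-fold higher than the level that 3 reads over the 3 vehicle libraries would give (edgeR adjusted p = 2.01e-16). With IFNβ, 5, 3 and 12 reads were counted in PDAC cells, at least 4.33-fold higher than that floor (edgeR adjusted p = 0.00119), and IFNγ gave 4.69 higher log2 expression than IFNβ (edgeR adjusted p = 3.23e-15). STING agonist libraries of PDAC cells held 1, 1 and 3 reads and Ido1 was not called (edgeR adjusted p = 0.597). Intervals and floors of this kind cover counting error only. In B16F10 cells no library of any group held more than 2 reads of Ido1, and the IFNγ libraries held 0, 0 and 0, so Ido1 was not detectable there at this depth with IFNγ. The interaction was called (edgeR adjusted p = 0.0224), but its fold change cannot be estimated from a group without reads. Without B16F10 vehicle replicate 1, which held the single read of that group, the call was lost (edgeR adjusted p = 0.9999).

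Ido2, the paralog next to Ido1, showed the same IFNγ and IFNβ calls in PDAC cells. It lies 7802 bases from Ido1 on chromosome 8, from 24531892 to 24576333 on the same strand. In PDAC cells Ido2 was at 0.759, 1.23 and 0.914 CPM with vehicle, 9.0, 8.71 and 9.08 CPM with IFNγ and 2.36, 1.49 and 1.47 CPM with IFNβ. The log2 fold change was 3.21 with IFNγ (edgeR adjusted p = 1.45e-15) and 0.92 with IFNβ (edgeR adjusted p = 0.00875). IFNγ was higher than IFNβ in PDAC cells by 2.29 on the log2 scale (edgeR adjusted p = 3.41e-13). In B16F10 cells Ido2 was at 0 in the vehicle, IFNγ and IFNβ libraries and averaged 0.0919 CPM with STING agonist. Ido2 was already read without treatment in PDAC cells, whereas Ido1 was not.

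Kynu, the kynureninase gene further down the same route (ENSMUSG00000026866, chromosome 2 from 43555329 to 43682715), held 1 to 14 reads in each of the 24 libraries, no group averaged more than 0.381 CPM, and it was called in 0 of the 12 comparisons (edgeR; by DESeq2 it was also called in 0). DESeq2 left at least 1 of the 10 members without an adjusted p in every comparison, and such members count as not called. In PDAC cells Kynu was at 0.335 ± 0.195 CPM with vehicle and 0.291 ± 0.0851 CPM with IFNγ (SD, n = 3 each), groups that overlapped. Of 12 other kynurenine route genes, Qprt and Aadat had fewer than 10 reads. Of the 10 tested, IFNγ raised 2 in PDAC cells, Ido2 and Kyat3, and lowered 1 in B16F10 cells, Slc7a5, while IFNβ raised 3 and lowered 1 in PDAC cells and raised 1 and lowered 3 in B16F10 cells. Over all genes, IFNγ called 13.5% in PDAC and 22.8% in B16F10 cells and IFNβ 18.2% and 24.0%, which is also the background of the pathway counts that follow. The first and later enzymes Tdo2, Kmo and Haao averaged at most 0.358 CPM in any group. Slc7a5 and Slc3a2 together encode the large neutral amino acid transporter that carries tryptophan and kynurenine, and are named here after their values were seen. In PDAC cells IFNβ raised Slc7a5 by 0.59 (edgeR adjusted p = 4.83e-09) and Slc3a2 by 0.55 (edgeR adjusted p = 4.40e-08) on the log2 scale. In B16F10 cells Slc7a5 fell by 0.15 with IFNβ (edgeR adjusted p = 0.0273), and its response differed between the lines by 0.71 (edgeR interaction adjusted p = 1.40e-07).

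Gch1 encodes GTP cyclohydrolase I, the first enzyme of tetrahydrobiopterin synthesis. It lies on the minus strand of chromosome 14 (ENSMUSG00000037580, 47153895 to 47189413 of GRCm38). Gch1 was the one member called higher with IFNβ than with IFNγ in both lines. In PDAC cells it stood at 27.2, 28.2 and 28.7 CPM with vehicle and at 130.7, 127 and 149 CPM with IFNβ, a fold change of 4.95 (log2 2.31, SE 0.088, edgeR adjusted p = 7.55e-25). In B16F10 cells it was at 7.75, 7.38 and 6.96 CPM with vehicle and at 9.49, 12.1 and 12.05 CPM with IFNβ, a fold change of 1.53 (log2 0.62, SE 0.12, edgeR adjusted p = 1.10e-05). The vehicle and IFNβ groups did not overlap in either line. The IFNβ effect was larger in PDAC cells by 1.66 on the log2 scale (SE 0.14, edgeR interaction adjusted p = 1.29e-11), the single member called in that interaction, where 12.1% of all genes were called.

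IFNγ did not give a call for Gch1 in either line. The IFNγ libraries held 31.5, 26.4 and 35.0 CPM in PDAC cells, around the vehicle values (log2 fold change 0.17, 95% interval -0.01 to 0.35), and 7.84, 7.65 and 8.85 CPM in B16F10 cells (log2 fold change 0.14, 95% interval -0.11 to 0.39). Against IFNβ, IFNγ gave lower Gch1 by a log2 fold change of -2.14 in PDAC cells (edgeR adjusted p = 1.10e-23) and -0.48 in B16F10 cells (edgeR adjusted p = 0.00139). Wars and Gch1 therefore differed between the cytokines in opposite directions in both lines. With STING agonist, PDAC cells held 31.3, 30.6 and 34.6 CPM of Gch1, each above the vehicle libraries, but the difference did not pass the test (log2 fold change 0.20, 95% interval 0.03 to 0.38, edgeR adjusted p = 0.558). Summed ductal epithelial genes in B16F10 libraries ranged from 13.6 to 19.3 CPM with vehicle and from 15.2 to 37.3 CPM with IFNγ. These sums were 16.9 to 52.3 CPM with IFNβ and 102 to 135 CPM with STING agonist. All 6 genes summed were called higher than vehicle with IFNβ (24.0% of all genes called) and 5 with STING agonist (3.46%). Gch1 was at 7.62 ± 0.438 CPM (SD, n = 3) with STING agonist. The part of the ductal transcripts in the B16F10 values of Gch1 was not tested.

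**Figure D3:**
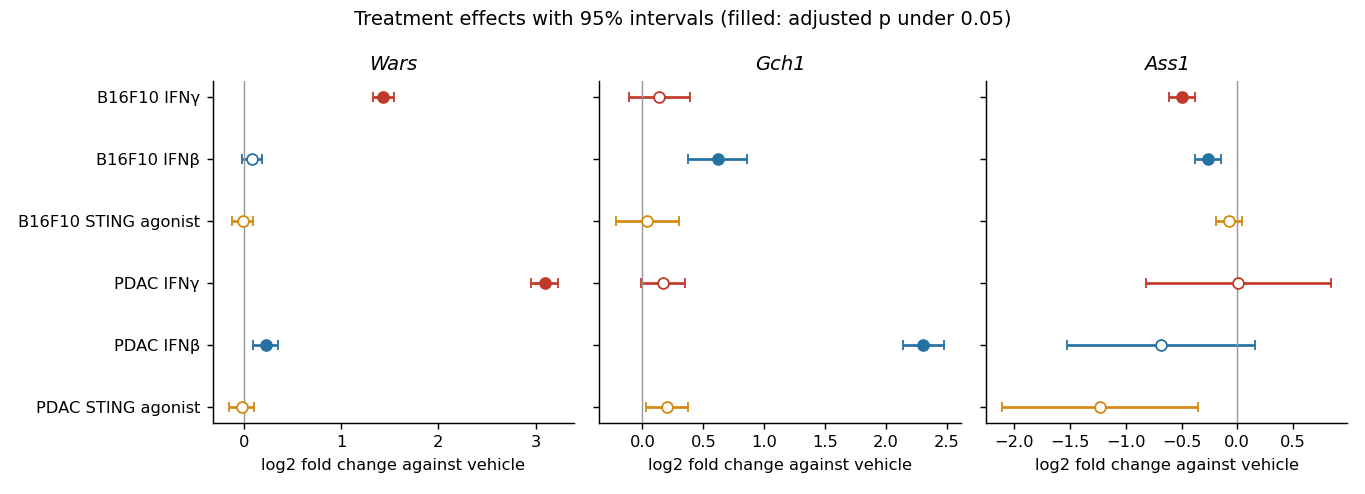
Log2 fold change against vehicle (x axis) with its 95% interval for Wars, Gch1 and Ass1 in each line and treatment (y axis), 3 libraries a group; filled points had an adjusted p under 0.05. Wars was raised most by IFNγ and Gch1 by IFNβ, larger in PDAC cells, and Ass1 was lower with both cytokines in B16F10 cells.

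Of the later enzymes and partners of tetrahydrobiopterin, none was called higher with either cytokine. All 7 listed genes were tested. IFNβ raised 0 and lowered 3 in PDAC cells, Pcbd1 and Pts among them, and raised 0 and lowered 1 in B16F10 cells, where 24.0% of all genes were called. IFNγ raised 0 and lowered 3 in each line, with a median log2 fold change of -0.25 in PDAC cells and -0.16 in B16F10 cells, against 0 over all genes. Pts, the next enzyme after Gch1 and named here after its values were seen, went from 18.4 CPM with vehicle to 10.7 CPM with IFNγ in PDAC cells, a log2 fold change of -0.76 (edgeR adjusted p = 5.47e-06). Gchfr, whose product binds GTP cyclohydrolase I and mediates its feedback inhibition, and Pcbd1, a pterin recycling enzyme, marked the PDAC line at baseline. With vehicle, Gchfr was at 24.6 CPM in PDAC and 1.57 CPM in B16F10 cells (log2 difference 3.98, edgeR adjusted p = 6.64e-23), and Pcbd1 at 51.6 and 0.106 CPM (log2 difference 8.96, edgeR adjusted p = 1.33e-30).

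Nos2, the inducible nitric oxide synthase gene (ENSMUSG00000020826, chromosome 11 from 78920787 to 78960254, plus strand), was read in PDAC cells mostly with IFNγ. There, vehicle libraries held 0 reads and IFNγ libraries 4, 6 and 22 reads, or 0.222, 0.368 and 0.748 CPM. The summed reads were at least 8.62-fold above the floor of 3 reads over the vehicle group (edgeR adjusted p = 0.00375). Replicate 3 held most of these reads, and without it the call was lost (edgeR adjusted p = 0.0571). IFNβ libraries held 3, 0 and 0 reads, and IFNγ was called higher (edgeR adjusted p = 0.0176), a call lost without IFNγ replicate 3 (edgeR adjusted p = 0.216) or without IFNβ replicate 2 (edgeR adjusted p = 0.0667) or 3 (edgeR adjusted p = 0.0736). DESeq2 gave no adjusted p for Nos2 in either comparison. In B16F10 cells Nos2 reached 5 reads in 1 IFNγ library and 0 in the other two, and was not called (edgeR adjusted p = 0.157).

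Acod1, the cis-aconitate decarboxylase gene (ENSMUSG00000022126), lies on chromosome 14 from 103046977 to 103056573 on the plus strand. In PDAC cells it held 1, 0 and 1 reads with vehicle and 55, 64 and 101 reads with IFNγ, or 3.06, 3.92 and 3.44 CPM. The ratio of the summed and scaled reads was 88.9 (95% exact counting interval 24.3 to 738), and the gene was called (edgeR adjusted p = 1.10e-11). IFNβ libraries held 4, 2 and 2 reads, which did not pass the test against vehicle (edgeR adjusted p = 0.469), and IFNγ was higher than IFNβ by 5.01 on the log2 scale (edgeR adjusted p = 8.18e-12). In B16F10 cells IFNγ libraries held 1, 13 and 6 reads against 2, 1 and 0 with vehicle, groups that overlapped, and the difference from vehicle was not called (edgeR adjusted p = 0.0876). A difference from IFNβ, with 0, 0 and 1 reads, was called (edgeR adjusted p = 0.0219). It was lost without IFNγ replicate 2 (edgeR adjusted p = 0.277) and without IFNβ replicate 1 (edgeR adjusted p = 0.0864) or 2 (edgeR adjusted p = 0.106). The IFNγ and IFNβ groups overlapped, and the call was also lost with the replicate number as a block (edgeR adjusted p = 0.0739). With IFNγ, 3 of 6 ductal epithelial genes, the other line's markers, rose in B16F10 cells (22.8% of all genes called). All 6 rose with IFNβ (24.0% of all genes called) and 5 with STING agonist (3.46%). Directly against IFNβ, IFNγ was higher for 0 and lower for 2 of the 6 (14.5% of all genes called). The part of these genes in the B16F10 results was not tested. A difference in the IFNγ effect between the lines was not called for Acod1 (edgeR interaction adjusted p = 0.184).

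With these, the direct comparison of IFNγ with IFNβ called 5 of the 10 genes in PDAC cells, where 13.9% of all genes were called, and 4 of the 10 in B16F10 cells, where 14.5% were called. Wars was higher with IFNγ and Gch1 lower in both lines. Acod1 was higher with IFNγ in PDAC cells and, by the call lost as described, in B16F10 cells. Ido1 and Nos2 were called in PDAC cells, and Ass1, lower with IFNγ, in B16F10 cells.

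Acod1 and Gch1 are printed here because they leaned to different cytokines in PDAC cells. RefSeq promoters on GRCm38.p6 were at hand for 4 of the 10 genes. The windows are the 250 bases before the RefSeq start, 5′ to 3′ on the gene's strand. Gch1 is at chr14:47189414-47189663 on the minus strand and Acod1 at chr14:103046762-103047011 on the plus strand. The deposited Acod1 gene starts earlier, at 103046977. The last bases of its window, the TATA box among them, therefore lie within the gene as counted. Capitals mark matches, on either strand, to the gamma-activated sequence GAS (TTCNNNGAA), the interferon-stimulated response element (GAAANNGAAA), the core letters of an interferon regulatory factor site (AANNGAAA, which is part of the response element), the CCAAT box (CCAAT) or the TATA box (TATAAA).
Gch1: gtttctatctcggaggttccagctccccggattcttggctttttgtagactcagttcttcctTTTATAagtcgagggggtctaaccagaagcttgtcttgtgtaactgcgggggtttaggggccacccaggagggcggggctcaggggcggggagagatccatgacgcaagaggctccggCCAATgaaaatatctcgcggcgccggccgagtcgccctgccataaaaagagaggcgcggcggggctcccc
Acod1: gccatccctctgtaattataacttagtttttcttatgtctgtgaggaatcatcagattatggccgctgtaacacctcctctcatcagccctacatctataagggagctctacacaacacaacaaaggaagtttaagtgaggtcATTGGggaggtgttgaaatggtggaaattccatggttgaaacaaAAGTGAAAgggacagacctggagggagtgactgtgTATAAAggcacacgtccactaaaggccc
The Acod1 window held 1 interferon regulatory factor core, starting 63 bases before the start, which 21.3% of all 32851 promoter windows of this length also hold, with a TATA box starting 28 bases and a CCAAT box, on the other strand, starting 107 bases before the start. The Gch1 window held 0 such cores, a CCAAT box starting 70 bases before the start and a TATA box on the other strand. Neither held the full letters of the response element (2.98% of all windows) or of GAS (7.02% of all windows). The CCAAT box was in 33.8% and the TATA box in 12.4% of all windows. Letter matches are descriptions and say nothing of binding.

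The genes around aconitate showed small changes beside Acod1. All 13 listed genes of citrate, aconitate and the itaconate route were tested. IFNγ raised 0 and lowered 2 in PDAC cells (median log2 fold change -0.12) and raised 2 and lowered 2 in B16F10 cells (median -0.07), while IFNβ raised 0 and lowered 4 in PDAC cells and raised 1 and lowered 4 in B16F10 cells. With IFNγ in PDAC cells the 15.4% called was near the 13.5% over all genes, and in B16F10 cells it was 30.8% against 22.8%. With IFNβ it was 30.8% against 18.2% in PDAC cells and 38.5% against 24.0% in B16F10 cells. No gene of this list passed 2-fold with either cytokine.

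Ido1, Acod1 and Nos2 are also macrophage genes. Of the macrophage markers, 7 were tested, and IFNγ in PDAC cells raised 2 of them, where 13.5% of all genes were called. The other 5 were not called, and the median log2 fold change was 0. The 8 genes of the marker list summed to 39.6 to 43.6 CPM with vehicle and 63.5 to 70.8 CPM with IFNγ. Cd14 made up most of this, at 39.1 and 63.6 CPM. Averages were under 1 CPM for 6 of the 8 genes with vehicle and for 5 with IFNγ. Among these, Adgre1, Csf1r, Fcgr1 and Itgam averaged at most 0.158 CPM in both groups, and Fcgr1 and Itgam were at 0 in both. In bulk RNA, more cells of a type and more RNA per cell cannot be told apart.

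Ass1 encodes argininosuccinate synthase, which with Asl rebuilds arginine from citrulline. The gene (ENSMUSG00000076441) lies on the plus strand of chromosome 2 from 31470207 to 31520672 of GRCm38. It marked the line more than any treatment. With vehicle, B16F10 cells held 116, 123 and 126 CPM and PDAC cells 1.63, 1.06 and 0.853 CPM, a log2 difference of -6.67 (SE 0.17, edgeR adjusted p = 1.75e-31). In B16F10 cells Ass1 fell by 0.49 on the log2 scale with IFNγ, to 86.5, 84.9 and 88.2 CPM (edgeR adjusted p = 1.03e-13), and by 0.26 with IFNβ, to 88.4, 103 and 112 CPM (edgeR adjusted p = 1.73e-04). All 6 of these libraries were below the 3 vehicle libraries. Ass1 was lower with IFNγ than with IFNβ by a log2 fold change of -0.24 (edgeR adjusted p = 0.00152), a call lost in the fit over all 24 libraries (edgeR adjusted p = 0.144) and without IFNβ replicate 3 (edgeR adjusted p = 0.0599). The summed melanocyte genes of B16F10 libraries were also lower with the cytokines, at 15309 to 15630 CPM with IFNγ and 14676 to 15943 CPM with IFNβ against 18356 to 18537 CPM with vehicle. Their part in the Ass1 result was not tested.

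In PDAC cells Ass1 was at about the same 1 CPM with IFNγ, at 1.72, 1.17 and 0.748 CPM, and was read at 0.799, 1.13 and 0.258 CPM with IFNβ. Both groups overlapped vehicle and neither was called (adjusted p = 1 and 0.333, edgeR). Transcripts of melanocyte genes were present in these libraries as well. The 7 melanocyte genes summed to 0.454% to 0.472% of their B16F10 vehicle mean in the PDAC vehicle libraries, while Ass1 stood at 0.702% to 1.34% of its own B16F10 vehicle mean. With STING agonist these ranges were 0.100% to 0.121% for the melanocyte genes and 0.194% to 0.563% for Ass1. Ass1 was at 0.236, 0.685 and 0.563 CPM there, below each vehicle library, and the difference did not pass the test (log2 fold change -1.23, 95% interval -2.11 to -0.35, unadjusted p = 0.00880, edgeR adjusted p = 0.383). A difference between the lines in the STING agonist effect was called for 0 of the 10 genes, where 2.12% of all genes were called. At an unadjusted p under 0.05 it was 1 gene, Ass1 (edgeR adjusted p = 0.126), and DESeq2 called this 1 (log2 -1.18, adjusted p = 0.00545, DESeq2). The part of the melanocyte transcripts in these values was not tested.

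**Figure D4:**
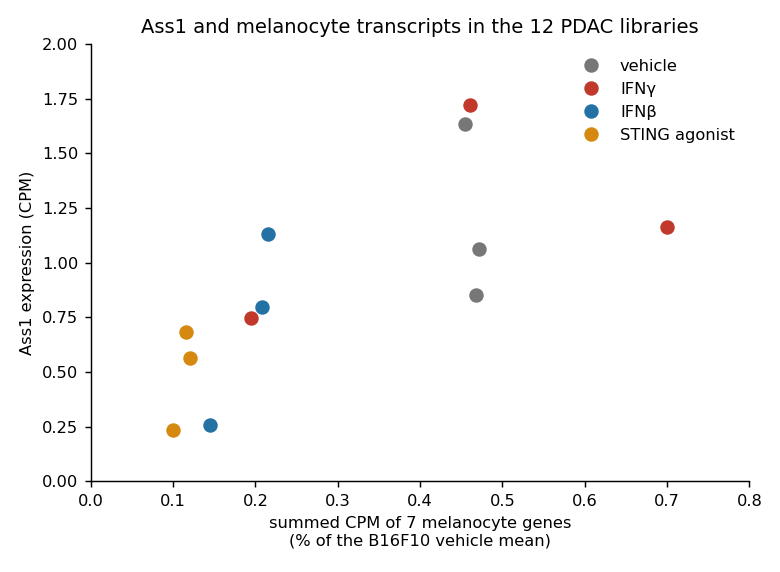
Ass1 expression in CPM (y axis) against the summed CPM of 7 melanocyte genes, as a percent of their mean in B16F10 vehicle libraries (x axis), for the 12 PDAC libraries, 1 point each, colored by treatment. The 3 STING agonist libraries sat lowest on the x axis, at 0.100% to 0.121%, and below the vehicle libraries on the y axis.

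Arg2, the mitochondrial arginase gene, and Slc7a2, a cationic amino acid transporter gene that carries arginine, were scarcely read. Arg2 (ENSMUSG00000021125, chromosome 12 from 79130777 to 79156301) held 0 to 9 reads per library and overlaps Vti1b on the other strand. It was called in 0 of the 12 comparisons (edgeR, and 0 by DESeq2 with the limit given for Kynu). Slc7a2 (ENSMUSG00000031596, chromosome 8 from 40862396 to 40922308) held 1 to 14 reads and overlaps Gm26584 on the other strand. Whether counting used strand is not given in the sources used here, so reads of such pairs cannot be told apart. No treatment comparison called Slc7a2. With vehicle it was at 0.525, 0.670 and 0.671 CPM in PDAC and 0.0957, 0.120 and 0.156 CPM in B16F10 cells, groups that did not overlap (log2 difference 2.26, SE 0.64, edgeR adjusted p = 0.00235). Among PDAC groups its highest mean was with vehicle, at 0.622 ± 0.0836 CPM, against 0.445 ± 0.303 with IFNγ, 0.289 ± 0.120 with IFNβ and 0.339 ± 0.123 with STING agonist (SD, n = 3 each).

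Of 14 other genes of arginine, nitric oxide and polyamines, Otc and Agmat had fewer than 10 reads. Of the 12 tested, IFNγ raised 0 and lowered 3 in B16F10 cells and raised 1 and lowered 3 in PDAC cells, and IFNβ raised 1 and lowered 3 in B16F10 cells and raised 0 and lowered 3 in PDAC cells. The share called in B16F10 cells with IFNγ, 25% of the 12, was near the 22.8% over all genes. With IFNγ in PDAC cells it was 33.3% against 13.5% of all genes. With IFNβ it was 33.3% against 24.0% in B16F10 cells and 25% against 18.2% in PDAC cells. The spermine synthase gene Sms fell in all 4 of these comparisons. It went from 30.8 to 12.6 CPM with IFNβ in B16F10 cells, a log2 fold change of -1.28 (edgeR adjusted p = 3.66e-35), and by -0.62 in PDAC cells (edgeR adjusted p = 2.31e-08). The fall with IFNβ was larger in B16F10 cells, with a difference of 0.64 (edgeR interaction adjusted p = 7.49e-05). Sms also fell with STING agonist in B16F10 cells (log2 fold change -0.40, edgeR adjusted p = 5.18e-04), close to its log2 fold change of -0.42 with IFNγ there. In PDAC cells STING agonist did not give a call for Sms (log2 fold change -0.12). Arg1, the cytosolic arginase gene, averaged at most 0.199 CPM in any group, while Slc7a1, the housekeeping arginine transporter gene, lay between 158 and 190 CPM.

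Ch25h encodes cholesterol 25-hydroxylase, an interferon-stimulated enzyme of macrophages that makes an antiviral oxysterol. The gene (ENSMUSG00000050370) lies on the minus strand of chromosome 19 from 34473786 to 34475135 and overlaps Gm26902 on the other strand. It held 0 reads in all 12 B16F10 libraries. In PDAC cells 11 reads were counted in all, 2, 0 and 1 with IFNγ, 5, 2 and 1 with IFNβ and 0 with vehicle and STING agonist, and no comparison called it (adjusted p = 0.148 for IFNβ against vehicle, edgeR). A change was not detectable at this depth. Of 12 other oxysterol and sterol genes, 11 were tested, all but Cyp7b1. IFNγ raised 5 and lowered 1 in PDAC cells (54.5% called against 13.5% of all genes). In B16F10 cells it raised 3 and lowered 1 (36.4% against 22.8%). Nr1h2, which encodes the oxysterol receptor LXRβ and is named here after its values were seen, rose with IFNγ from 45.1 to 81.0 CPM in B16F10 cells (log2 fold change 0.84, edgeR adjusted p = 3.17e-28) and from 37.9 to 58.7 CPM in PDAC cells (0.65, edgeR adjusted p = 8.87e-09). It was not called with IFNβ in either line. IFNβ raised 2 and lowered 2 of the 11 in B16F10 cells (36.4% called against 24.0% of all genes). In PDAC cells it raised 2 and lowered 1 (27.3% against 18.2%). With STING agonist, over the 6 pathway lists together, 0 genes were called in PDAC cells, where 0.360% of all genes were called. In B16F10 cells 3.46% of all genes were called. There the called genes were 1 of 10 tested of the kynurenine route and 1 of 12 of arginine and polyamines. A further 1 of 13 of citrate and aconitate and 2 of 11 of the sterol list were called.

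With vehicle, 4 of the 10 genes differed between the lines, where 58.0% of all genes were called. Gch1 (log2 difference 1.93, edgeR adjusted p = 1.59e-19) and Slc7a2 were higher in PDAC cells, and Ass1 and Wars (log2 difference -0.45, edgeR adjusted p = 3.46e-09) lower. Other listed genes with large baseline differences were Abca1, a cholesterol exporter gene, lower in PDAC cells by a log2 difference of -7.27 (edgeR adjusted p = 3.32e-25), Nr1h3, the LXRα gene, higher by 5.75 (edgeR adjusted p = 7.96e-16), Idh3a, lower by a difference of -1.88 (edgeR adjusted p = 2.02e-28) and Nos3, lower by a difference of -2.50 (edgeR adjusted p = 2.88e-07). The same rule named Afmid (1.23), Sms (1.30), Slc25a1 (1.44), Hsd3b7 (1.46) and Vars (1.16) as higher in PDAC cells on the log2 scale, and Kyat1 (-1.19), Ddah1 (-1.23) and Sdhb (-1.83) as lower.

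Levels of different genes were compared per kilobase of gene length. In B16F10 cells with vehicle, Wars was at 54.6 ± 0.784 and Ass1 at 50.4 ± 2.07 CPM per kilobase (SD, n = 3), then Gch1 at 2.65 ± 0.142, and the other 7 genes were at or below 0.153. In PDAC cells with IFNγ, Wars was at 338 ± 13.8, Gch1 at 11.2 ± 1.56, Ido1 at 3.66 ± 0.315, Acod1 at 1.32 ± 0.166 and Ass1 at 0.502 ± 0.203 CPM per kilobase. Arg2 at 0.127 ± 0.0877 and Nos2 at 0.101 ± 0.0616, the next pair, did not differ beyond their spread. With IFNβ, Gch1 in PDAC cells reached 48.8 ± 4.27 and Wars 45.6 ± 1.76 CPM per kilobase, levels that did not differ beyond their spread.

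Genes most like each member were sought by Pearson's r of log2(CPM + 1) over the 24 libraries, among genes with at least 1 CPM on average in some group, as a description in which libraries of a group and line are not independent. Ido1 was most like 2210407C18Rik (r = 0.995), Serpina3g (0.990) and Ubd (0.983), and Acod1 most like Ubd (0.975), Fas (0.969) and 2210407C18Rik (0.968). Both members reached 1 CPM on average only in PDAC cells with IFNγ, so their r values rest largely on that group. For Wars these were H2-DMb1 (0.983), Ggct (0.983) and Tnfrsf1a (0.981), and for Gch1 Nefl (0.987) and Mmp13 (0.984). For Ass1 the 3 genes, Apold1, Car6 and Nckap5l, all had r = 0.998.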

How the data were processed

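For 24 bulk libraries the authors used cutadapt, STAR and Rsubread and deposited raw counts per gene, in all 15543131 to 32266795 reads on genes a library. The minimum of 10 reads combined over libraries follows the study's methods. Coordinates are those deposited and match GRCm38. Single-cell samples were not analysed here.

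Counts were fitted with edgeR 4.0.16 (R 4.3.3), TMM and group means over the 12 libraries of a line, or all 24 for differences between lines, with Benjamini-Hochberg adjustment. The fit was tested on simulated data. Each SE is the absolute log2 fold change over the square root of F, and 95% intervals use the normal quantile. With 3 against 3, an exact test of 1 value cannot go below p = 0.1. All 10 members are named, and of each pathway list up to 3 genes per comparison called and over 2-fold, with at least 1 CPM on average in a group. Members and lists were chosen with earlier results of these data known. Replicates of a group differed by more than sampling noise. Alternatives were DESeq2 1.42.0, RLE factors, total reads, no filter, the filterByExpr minimum, a robust fit, a replicate block, other libraries in the fit and each library left out. A few named items are not reported here.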

Additional observations from a re-analysis of the deposited data

Results flagged for a closer look

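Responses that differed between B16F10 and PDAC cells were singled out by the interaction test over the 24 libraries (edgeR). With IFNγ these were Wars (adjusted p = 2.44e-19), larger in PDAC cells, and Ido1 (adjusted p = 0.0224), read almost only in PDAC cells, whose call rests on 1 read in the B16F10 vehicle group. With IFNβ it was Gch1 (adjusted p = 1.29e-11), larger in PDAC cells. Of the listed pathway genes named in the text, 5 differed with IFNγ, Slc7a1 (adjusted p = 0.0211), Kyat3 (adjusted p = 0.0427), Slc7a5 (adjusted p = 0.00338), Pts (adjusted p = 9.05e-05) and Slc25a1 (adjusted p = 1.04e-04). With IFNβ these were Sms (adjusted p = 7.49e-05), Slc7a5 (adjusted p = 1.40e-07), Slc3a2 (adjusted p = 8.06e-04), Vars (adjusted p = 0.00126), Kyat1 (adjusted p = 0.0206) and Slc25a1 (adjusted p = 0.0108). Over all genes, 9.47% were called in the IFNγ interaction and 12.1% in the IFNβ interaction. Listed genes not named in the text also differed and are left out here, Srm and Azin1 with IFNγ among them.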

How the results depend on the processing

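The number of members called stayed within 1.5 times of the reported count under every alternative for 10 of the 12 comparisons. For the STING agonist effect in PDAC against B16F10 cells it was 1 in place of 0 with DESeq2, with no filter and with only the groups compared, in each case Ass1. For the IFNγ effect it was 1 to 2 over the fits that left out 1 library.

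Over all alternatives the log2 fold change in PDAC cells lay between 3.06 and 3.12 for Wars with IFNγ and between 2.23 and 2.34 for Gch1 with IFNβ, and was called throughout. Directions turned only for differences that were not called. With total reads, the log2 fold change of Wars with STING agonist in B16F10 cells was 0.013 and that of Ass1 with IFNγ in PDAC cells -0.026, which was -0.059 over all 24 libraries. With the replicate block, Gch1 differed by -0.0033 between the lines with IFNγ. Over the fits that left out 1 library, Wars with STING agonist ranged from -0.033 to 0.0024 in B16F10 and from -0.068 to 0.0093 in PDAC cells, Gch1 with STING agonist from -0.0076 to 0.072 in B16F10 cells, and Ass1 with IFNγ from -0.33 to 0.31 in PDAC cells. The differences between the lines ranged from -0.093 to 0.13 for Gch1 with IFNγ and from -0.069 to 0.012 for Wars with STING agonist. The causes were not tested.

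Same-numbered libraries of a line did not deviate together throughout (correlations from -0.373 to 0.312). Differently numbered libraries were not compared, so whether the replicate numbers pair some libraries cannot be decided from this. With the replicate block, 3 members in place of 4 were called for IFNγ against IFNβ in B16F10 cells, Acod1 being lost (log2 fold change 3.82, adjusted p = 0.0739, edgeR), and no other call changed. Genes called over the whole table moved most with STING agonist. In B16F10 cells there were 732, with 459 over all 24 libraries and 1271 with only the groups compared, and 437, 477 and 415 without vehicle replicate 1 or 2 or STING agonist replicate 3. In PDAC cells there were 76, with 44 under the filterByExpr minimum, 155 with no filter, 126 with the replicate block, 132 with only the groups compared and 49, 42 and 49 without vehicle replicate 3 or STING agonist replicate 1 or 3. For the STING agonist interaction there were 449, with 743 by DESeq2 and 793 with only the groups compared. Total reads in place of TMM shifted every baseline log2 difference by -0.18. Levels of a few reads limit Ido1 and Acod1 in B16F10 cells and Nos2, Ch25h, Kynu, Arg2 and Slc7a2 in both lines.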
